A study of Drosophila melanogaster
Drosophila virilis with 26 samples.

Results

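The vacuolar proton pump (V-type H+-ATPase) subunit genes of Drosophila melanogaster are described here across the protocols of a comparison of low-input RNA-seq methods. The members are all genes whose symbol begins with Vha in the deposited count table, which gave 33 of 13802 D. melanogaster genes (28133 genes of both species). Of these 33, 13 encode subunits of the V1 sector, 18 subunits of the V0 sector and 2 accessory proteins. The RNA was total RNA from pooled whole embryos collected over 0-4 h, mixed with D. virilis total RNA, with no strain, genotype or treatment given in the labels. Of the low-input protocols, which took 1 ng of RNA, Clontech, TotalScript with oligo(dT) priming and SMART-seq2 were each run on 4 mixtures in which 0, 5, 10 or 20% of the RNA came from D. virilis (4 libraries each). SMART-seq2 was also run with the tagmentation reaction cut 2.5-fold or 5-fold in volume (hereafter SMART-seq2 2.5x and 5x), each on mixtures labelled with the same percentages and on a 1% mixture (5 libraries each). TruSeq took 100 ng of the 0, 5, 10 and 20% mixtures (4 libraries) and served as the high-input standard. No mixture was repeated within a protocol, so the libraries of 1 protocol were treated as its replicates after each count was divided by the library's total on D. melanogaster genes. The spread and the p-values are therefore those of library making from pooled RNA, not those of separate embryo collections.

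The V-ATPase pumps protons across the membranes of endosomes, lysosomes, secretory vesicles and, in some epithelia, the cell surface. ATP is hydrolysed in the cytosolic V1 sector, whose rotation drives the proteolipid ring of the membrane-bound V0 sector past the a subunit, through which the protons pass. Flies carry several genes for many of the subunits, and some of the copies are known for expression in single organs such as the testis, the gut or the Malpighian tubules. In the early embryo the pump acidifies endosomes and the compartments in which yolk is broken down, and most mRNA at this age was laid down by the mother.

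Levels are given throughout as reads per 1000000 D. melanogaster reads (RPM). These reads were not divided by transcript length, so a level was compared between protocols within a gene and not between genes. The D. melanogaster total was 1561692 to 7842785 reads in the Clontech, TotalScript and SMART-seq2 libraries, 11215999 to 19011285 in the diluted SMART-seq2 libraries, and 18971801 to 55055710 in TruSeq. The 5 maternal markers fixed for an early embryo (among them bcd, nos and osk) summed to 2386 to 6694 RPM over the 26 libraries, and the highest sums were those of TotalScript. The 5 zygotic markers summed to only 7.95 to 21.0 RPM. In TotalScript they summed to 7.95 to 10.2 RPM, close to the 10.0 RPM that the muscle list reached in the same protocol. Every gene of both lists had reads in every protocol, but the maternal markers were far more abundant. Whether the mRNA of a member was maternal or zygotic was not tested. The sums of the marker lists for testis, ovarian follicle, yolk and fat body, and gut reached at most 1.23, 0.135, 2.0 and 2.28 RPM, with the sperm genes Mst87F, Mst84Da and Mst35Bb at 0 in all libraries, and that of muscle at most 10.0 RPM, in TotalScript. Reads without a unique place made up 32.2 to 41.2% of each TotalScript library, at most 17.1% of any other low-input library and 5.96 to 9.27% of the TruSeq libraries. D. virilis genes took 17.6% of the gene reads of the mixture labelled 20% in both diluted protocols, 7.17 to 8.18% in the other low-input protocols and 9.40% in TruSeq, so that libraries of the same label differed in their measured share. The part of these values in the results was not tested. In pooled embryos, fewer cells of a type and less RNA per cell cannot be told apart.

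Each subunit of the pump was represented in the embryo. Of the 33 members, 17 were used, by which is meant 5 or more RPM over the pooled TruSeq libraries, 1 was low (0.5 to 5 RPM) and 15 were silent (under 0.5). Of all 13802 D. melanogaster genes, 6011 lay at 5 or more RPM by the same measure. The shares of all genes in the low and silent classes were not counted, so the split only describes these 33 genes. The 17 used members had 44.4 to 1146 RPM in the pooled TruSeq reads and the 15 silent members at most 0.0757, so that no gene lay near the limit of either class except the low one, Vha68-1. All 15 families had a used member, where each of the 2 accessory proteins counts as a family. In 13 families this was a single gene. The remaining 2, the a subunit and the e subunit, each had a pair of used genes. However, 7 families have only 1 gene, so a single used gene was the most they could show. The number of silent members was also 15 with the limit at 0.1 or at 1 RPM, with the sampled counts, and with any 1 TruSeq library left out.

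In V1, the used gene was Vha68-2 for subunit A, which binds and hydrolyses ATP, with 602 ± 10.4 RPM in TruSeq (SD, n = 4). Subunit B, which forms the catalytic hexamer with A, has the single gene Vha55, at 691 ± 6.51. The rotor subunits D and F were used from Vha36-1 (159.7 ± 1.79) and Vha14-1 (95.5 ± 4.11). The peripheral stalks are made of E and G, with the single genes Vha26 (529.9 ± 9.63) and Vha13 (291 ± 7.83). Subunit C, which joins the stalks to V0 and leaves the pump when it comes apart, has Vha44 (182 ± 3.98), and the regulatory subunit H has VhaSFD (213 ± 1.16).

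In V0, the c subunit of the proteolipid ring was used from Vha16-1 (1144 ± 8.26 RPM) and c″ from VhaPPA1-1 (251 ± 8.02). Subunit d, which seats the rotor on the ring, was used from VhaAC39-1 (290.5 ± 4.12). The a subunit, which holds the half-channels for protons, was used from both Vha100-2 (296 ± 8.0) and Vha100-1 (207 ± 2.54). Vha100-1 is known best from synaptic vesicles of neurons. The small e subunit was used from VhaM9.7-b (96.2 ± 2.64) and VhaM9.7-c (44.0 ± 2.31). Both accessory proteins were used, VhaAC45 (239 ± 11.2), which is related to mammalian ATP6AP1, and VhaM8.9 (199 ± 5.66), the fly ATP6AP2 or prorenin receptor.

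**Figure D1:**
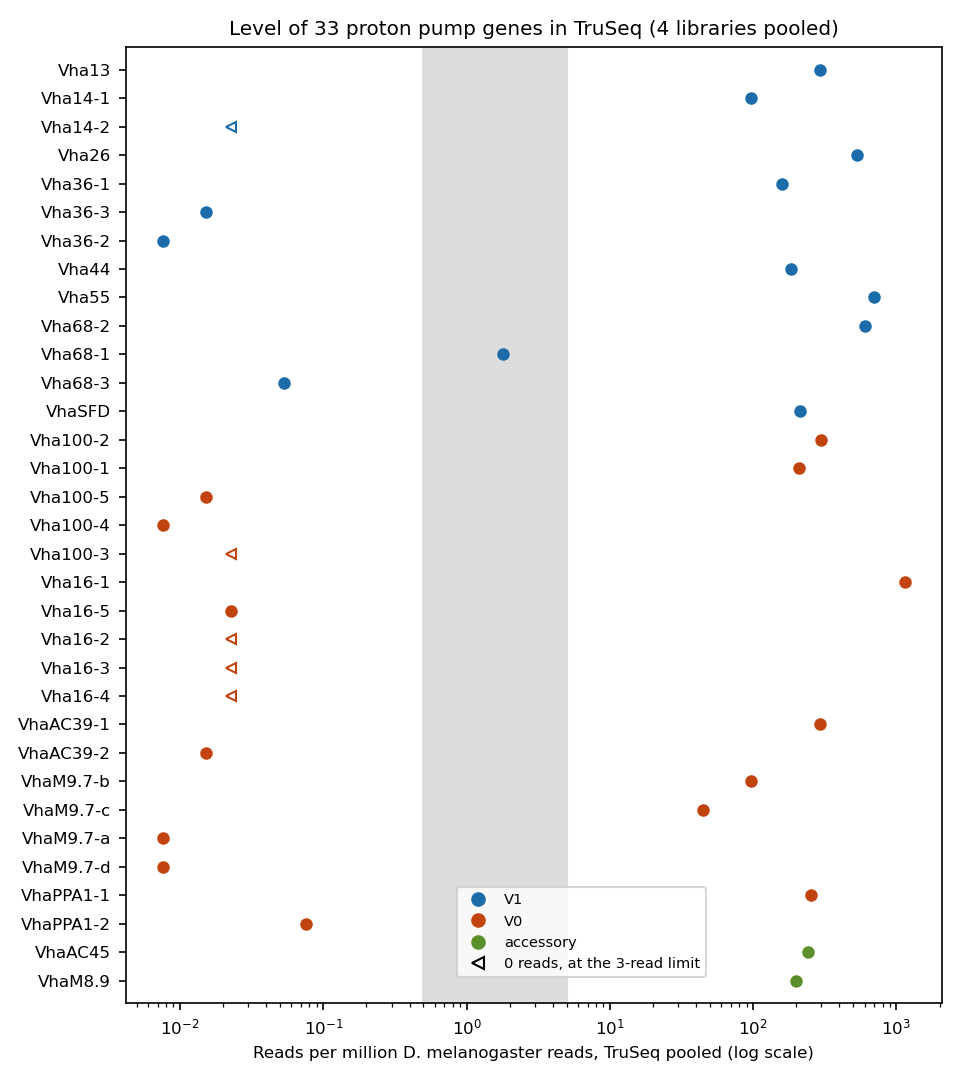
Level of each of the 33 proton pump genes in TruSeq, in RPM (log scale, 4 libraries pooled, not divided by transcript length), with 1 row per gene ordered by sector and subunit and the range from 0.5 to 5 shaded. Filled points are measured levels, and open triangles mark genes with 0 reads, drawn at the 0.0227 that 3 reads would give. In these pooled reads the used genes lie between 44.4 and 1146, the silent ones at or under 0.0757, and Vha68-1 alone lies in the shaded range.

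The silent members were Vha100-3, Vha100-4 and Vha100-5 of subunit a, Vha16-2, Vha16-3, Vha16-4 and Vha16-5 of c, VhaPPA1-2 of c″, VhaAC39-2 of d, VhaM9.7-a and VhaM9.7-d of e, Vha14-2 of F, Vha36-2 and Vha36-3 of D, and Vha68-3 of A. Thus 11 of the 18 V0 members and 4 of the 13 V1 members were silent. Together they took 100 reads in the 26 libraries, against 2272301 reads on the 17 used members. Vha14-2, Vha16-2, Vha16-3, Vha16-4 and Vha100-3 had 0 reads in every library. A count of 0 in the 313379356 D. melanogaster reads allows a level of up to 0.00957 RPM (3 reads), and in the TruSeq reads alone up to 0.0227; this limit covers counting error only. The largest total among the silent members was that of VhaPPA1-2, with 34 reads in 16 libraries and at most 6 in a single library. In the RefSeq annotation its span overlaps that of CG3817. Vha68-3, the neighbour of Vha68-2, had 18 reads in 12 libraries, and VhaM9.7-a had 18 reads in 6 libraries. The other 7 silent members had 1 to 10 reads each.

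Vha68-1, the second gene for the catalytic A subunit, was the 1 member between the classes. It had 0, 1.44, 1.91 and 1.23 RPM in the Clontech libraries and 1.49, 1.92, 3.31 and 1.18 in the TotalScript libraries (0, 5, 10 and 20% mixture in turn). In SMART-seq2 it had 0, 5.51, 2.05 and 1.11, in SMART-seq2 2.5x 1.36, 4.72, 0.299, 1.2 and 9.48 and in SMART-seq2 5x 1.35, 4.31, 0.652, 1.34 and 10.9 (for the diluted protocols, the 0, 1, 5, 10 and 20% mixtures). In TruSeq it had 1.71, 1.74, 2.07 and 1.73. The TruSeq libraries lay close together, and the low-input libraries ranged both above and below them. The 0 values of Clontech and SMART-seq2 allow up to 1.09 and 1.63 RPM (3 reads). The 20% library stood highest in both diluted protocols, with 125 reads in 2.5x and 159 in 5x, and its counting intervals (exact Poisson, 95%) of 7.89 to 11.3 and 9.25 to 12.7 RPM lay above every TruSeq value. These libraries were made from the same pre-amplified cDNA. Vha68-1 passed the test against TruSeq in none of the 5 low-input protocols, with log2 fold changes of -0.44 ± 0.46 to 0.98 ± 0.75 (edgeR, SE), with adjusted p of 0.28 or more. Reads that matched Vha68-1 and Vha68-2 equally well were dropped as not unique, so either count can miss reads from stretches that the copies share.

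The recovery of the members was then compared with TruSeq in each low-input protocol. A member was called higher or lower at an adjusted p under 0.05 by edgeR's quasi-likelihood test, with p-values adjusted over all D. melanogaster genes tested, and 18 members (the 17 used ones and Vha68-1) passed the filter on low counts; the 15 silent members were not tested. All 5 comparisons share the same TruSeq libraries. With the diluted protocols the 4 mixtures they share with TruSeq were tested, and their means below include the 1% library. Whether libraries of a gene overlapped TruSeq is given below as a description, since the share of all genes without overlap was not counted.

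In SMART-seq2, 16 of the 18 tested members were higher than in TruSeq and 0 lower, where 36.9% of all 6500 genes tested were called higher and 19.1% lower. The median log2 fold change was 0.72 over the members and 0.20 over all genes. The summed level of the 33 members was 8865 ± 523 RPM in SMART-seq2 and 5533 ± 57.9 in TruSeq (SD, n = 4 each). In 2.5x, 16 members were higher and 0 lower (41.1% and 21.4% of all 6664 genes), with a median of 0.77 over the members and 0.21 over all genes. In 5x, made from the same cDNA as 2.5x, 16 members were higher and 0 lower (42.4% and 22.2% of all 6639 genes), with medians of 0.75 and 0.21. Part of this was common to most genes. Scaling by TMM, which sets the bulk of genes as unchanged, lowered the median of all genes in these comparisons by 0.18, 0.18 and 0.19 on the log2 scale and left 13, 14 and 13 members higher, with members' medians of 0.54, 0.60 and 0.56. With TMM, 26.1% of all genes were called higher and 25.1% lower in SMART-seq2, 30.1% and 28.1% in 2.5x, and 30.8% and 28.97% in 5x. Higher calls made up 65.9, 65.7 and 65.6% of all calls without TMM and 51.0, 51.7 and 51.5% with it.

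**Figure D2:**
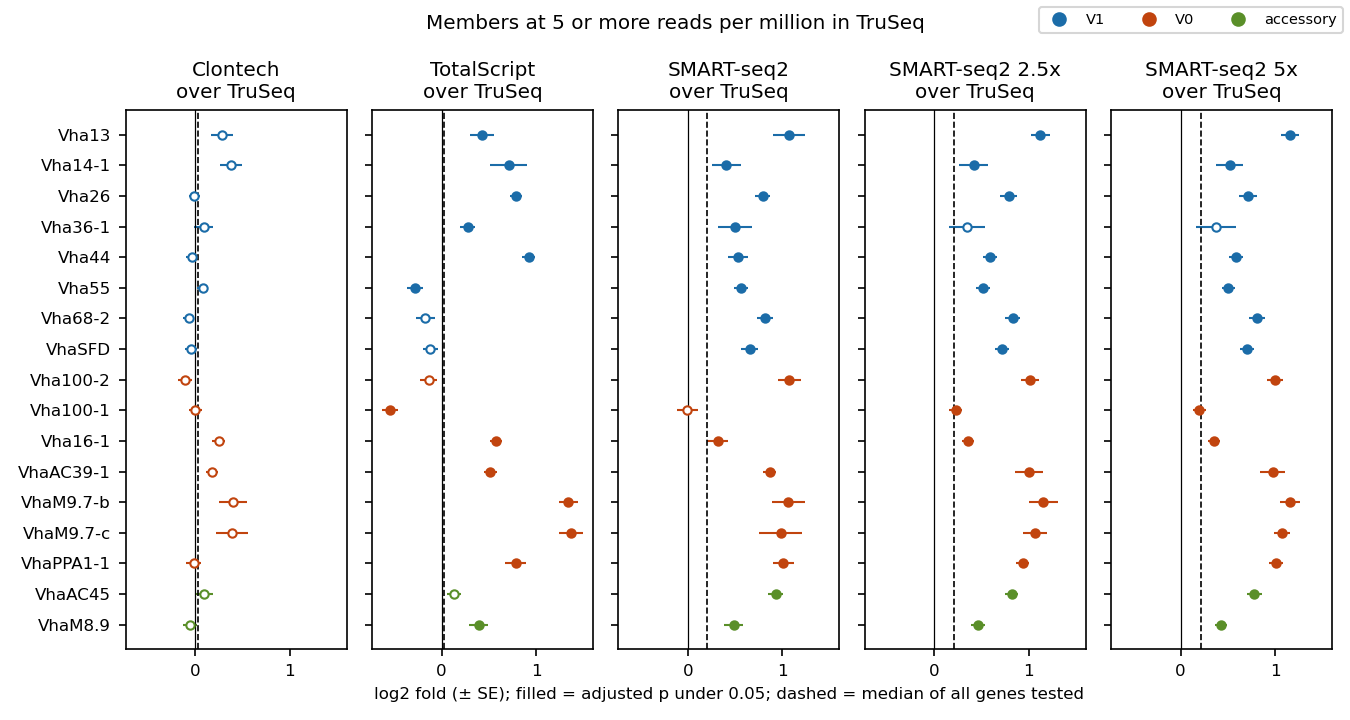
Log2 fold change of the 17 used members in each low-input protocol over TruSeq (edgeR, bars are SE), with filled points at an adjusted p under 0.05 and a dashed line at the median of all genes tested. In the SMART-seq2 panels nearly all members lie to the right of the dashed line, in TotalScript they fall on both sides of 0, and in Clontech every point is open.

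All 8 used V1 members were higher in SMART-seq2, with a median log2 fold change of 0.61, where 36.9% of all genes were called higher and their median was 0.20. Vha68-2, for the catalytic A subunit, had 905, 1094, 1140.1 and 1092 RPM in SMART-seq2, against 609.8, 607, 603 and 587 in TruSeq. Every SMART-seq2 library lay above every TruSeq library, and the log2 fold change was 0.81 ± 0.084 (SE, adjusted p = 3.6e-05). Vha55, for the B subunit that pairs with A, had 924, 1089.9, 1063 and 1008 in SMART-seq2, against 697, 691, 695 and 683 in TruSeq, again without overlap (log2 fold change 0.56 ± 0.073, SE, adjusted p = 1.5e-04). In 2.5x and 5x Vha55 averaged 991 ± 75.7 and 985 ± 68.9 (SD, n = 5 each), and its change from TruSeq was 0.52 and 0.50. Vha68-2 changed by 0.83 and 0.81 in these protocols. The A and B genes were thus called higher in each SMART-seq2 protocol.

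The stalk genes Vha13 and Vha26 were higher too. Vha13, for subunit G, had 883, 498, 539 and 531 RPM in SMART-seq2, against 294, 281, 290.2 and 300.0 in TruSeq. The 0% library stood far above the other SMART-seq2 libraries, and all 4 lay above TruSeq (log2 fold change 1.07 ± 0.17, SE, adjusted p = 4.4e-04). In 2.5x Vha13 had 589, 683, 575, 779.7 and 596 and in 5x 654, 682, 693, 724 and 525, all above TruSeq, with changes of 1.12 and 1.15. Vha26, for subunit E, had 1017, 826, 944 and 877 in SMART-seq2, against 543, 525, 532 and 521 in TruSeq, and changed by 0.79 ± 0.080 (SE, adjusted p = 3.3e-05). Vha44 (subunit C) and VhaSFD (subunit H) ranged from 229 to 303 and from 305 to 381 in SMART-seq2, against 177 to 186 and 212 to 214 in TruSeq, with log2 fold changes of 0.53 and 0.65.

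In SMART-seq2 the calls of the V1 rotor genes held under fewer settings than those of the other members called. Vha14-1, for subunit F, had 171, 111, 99.8 and 125 RPM in SMART-seq2, against 96.2, 89.6, 98.1 and 98.4 in TruSeq, so that the lowest SMART-seq2 library lay just above the highest TruSeq library. Its log2 fold change of 0.40 ± 0.15 (SE, adjusted p = 0.043) was lost with TMM, with DESeq2 and without any 1 TruSeq library. In 2.5x and 5x Vha14-1 was called higher by 0.42 and 0.52, and the calls held under 8 and 15 of 16 alternatives. Vha36-1, for subunit D, had 331, 187, 176 and 208 in SMART-seq2, against 161, 157, 160.2 and 160.5 in TruSeq (0.50 ± 0.18, SE, adjusted p = 0.037), with the 0% library above the rest. In 2.5x it had 269, 255, 153, 250.4 and 141 and in 5x 291, 251, 155, 247 and 136. The 5 and 20% libraries of both dilutions lay below the TruSeq levels and the others above, and Vha36-1 did not pass the test in either with log2 fold changes of 0.35 ± 0.19 and 0.37 ± 0.21 (SE, adjusted p = 0.14 for both). Its call in SMART-seq2 was lost with TMM, with DESeq2 and without any 1 TruSeq library.

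Of the 7 used V0 members, 6 were higher in SMART-seq2 and all 7 in both dilutions, with medians of 0.98, 1.00 and 1.00. All genes tested had medians of 0.20, 0.21 and 0.21, with 36.9, 41.1 and 42.4% called higher. The gene added in the dilutions was Vha100-1, whose calls there did not hold with TMM. VhaPPA1-1, for the c″ subunit of the ring, had 619, 489.6, 485 and 426 RPM in SMART-seq2, against 259, 256, 248 and 242 in TruSeq (1.01 ± 0.11, SE, adjusted p = 5.8e-05). Vha16-1, for the c subunit, had 1765, 1221, 1422 and 1284 in SMART-seq2, against 1156, 1143, 1137 and 1140.5 in TruSeq, a change of 0.32 ± 0.11 (SE, adjusted p = 0.031). The change of Vha16-1 did not pass with TMM in SMART-seq2 or in 5x, nor in SMART-seq2 without any 1 TruSeq library. VhaAC39-1, for subunit d, ranged from 489 to 552 in SMART-seq2, against 285 to 294 in TruSeq (0.86 ± 0.073, SE, adjusted p = 1.2e-05).

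The genes of the e subunit were among the members with the largest changes. VhaM9.7-b had 293, 169.9, 165 and 176 RPM in SMART-seq2, against 99.3, 96.5, 92.8 and 96.1 in TruSeq (1.06 ± 0.18, SE, adjusted p = 6.3e-04), with the 0% library far above the other SMART-seq2 libraries. VhaM9.7-c ranged from 56.1 to 138 in SMART-seq2, against 41.9 to 46.1 in TruSeq, a change of 0.98 ± 0.23 (SE, adjusted p = 0.0042). In 2.5x and 5x VhaM9.7-b changed by 1.15 and 1.16 and VhaM9.7-c by 1.06 and 1.07, without overlap with TruSeq. Both accessory genes were higher as well. VhaAC45 had 454, 469, 455 and 437 in SMART-seq2, against 249.5, 246, 233 and 225 in TruSeq (0.93 ± 0.075, SE, adjusted p = 9.7e-06), and VhaM8.9 ranged from 238 to 312, against 191 to 204 in TruSeq (log2 fold change 0.48 ± 0.097).

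In TotalScript, whose libraries held the most reads without a unique place (32.2 to 41.2%, against 5.96 to 9.27% in TruSeq), members moved in both directions. Of 18, 11 were higher than in TruSeq and 2 lower, where 39.1% of all 6565 genes were called higher and 36.9% lower, and the median log2 fold change was 0.41 over the members and 0.022 over all genes. The summed level was 7136 ± 144 RPM in TotalScript and 5533 ± 57.9 in TruSeq. The lower members were Vha100-1 of the a subunit and Vha55 of the B subunit. Vha55 had 580.4, 666, 528 and 507 RPM in TotalScript, against 697, 691, 695 and 683 in TruSeq, without overlap (log2 fold change -0.28 ± 0.085, SE, adjusted p = 0.012). This call was lost in the sampled counts, with an adjusted p of 0.060 (edgeR). The number of lower members rested on the 5% TotalScript library. Without it 5 were called lower (38.3% of all genes) and 11 higher, the added ones being Vha68-2 (-0.27 ± 0.077), Vha100-2 (-0.22 ± 0.065) and VhaSFD (-0.17 ± 0.068, edgeR, SE). With limma voom 3 were lower. Vha68-2, the partner of Vha55 in the catalytic hexamer, had 559, 649, 491 and 446, which overlapped its TruSeq levels, and its change of -0.17 ± 0.10 (SE, adjusted p = 0.16) did not pass. Neither did those of Vha100-2 (-0.14 ± 0.089), VhaSFD (-0.12 ± 0.079) and VhaAC45 (0.13 ± 0.076).

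The 11 higher members of TotalScript comprised 5 V1, 5 V0 and 1 accessory gene. The e subunit genes changed most. VhaM9.7-b had 223, 202, 276 and 269 RPM in TotalScript, against 99.3, 96.5, 92.8 and 96.1 in TruSeq, and VhaM9.7-c had 89.1, 99.9, 133 and 128, against 45.8, 41.9, 42.1 and 46.1. Their log2 fold changes were 1.34 ± 0.10 (SE, adjusted p = 1.0e-06) and 1.37 ± 0.12 (SE, adjusted p = 3.6e-06). Vha44, for subunit C, had 375, 321, 329 and 351 in TotalScript, against 186, 181, 184 and 177 in TruSeq (0.92 ± 0.069, SE, adjusted p = 1.0e-06), with every library above TruSeq. Vha26 and VhaPPA1-1 both changed by 0.78 and Vha16-1 by 0.57. Vha14-1 had 144, 84.5, 185 and 201 in TotalScript, where the 5% library lay below TruSeq and the other 3 above it (0.71 ± 0.20, SE, adjusted p = 0.0078). VhaAC39-1, Vha13, VhaM8.9 and Vha36-1 were higher by 0.52, 0.43, 0.39 and 0.28 on the log2 scale, and the call of Vha36-1 was lost in the fit on all 26 libraries.

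In Clontech no member was called, with 0.168% of all 6547 genes called in either direction. At an unadjusted p under 0.05 there were 6 of the 18 members (17.5% of all genes), DESeq2 called 1 (Vha16-1) with 6.003% of all genes, and limma voom 0 with 0.275%. The median log2 fold change was 0.040 over the members and 0.030 over all genes, and the summed level was 5918 ± 304 RPM in Clontech and 5533 ± 57.9 in TruSeq. Vha16-1 had 1504, 1357, 1187 and 1391 RPM in Clontech, against 1156, 1143, 1137 and 1140.5 in TruSeq, so that all 4 libraries lay above TruSeq (0.25 ± 0.071, SE, adjusted p = 0.16). VhaM9.7-b had 184, 117, 103 and 109 in Clontech, against 99.3, 96.5, 92.8 and 96.1 in TruSeq (0.40 ± 0.15, SE, adjusted p = 0.23), and here too the 0% library was set apart. The 10% Clontech library decided the count of calls. Without it, Vha13, Vha14-1 and Vha16-1 were called higher, by 0.37 ± 0.10, 0.49 ± 0.087 and 0.31 ± 0.051 (edgeR, SE), with 11.4% of all genes called. The A, B, C, E and H genes (Vha68-2, Vha55, Vha44, Vha26 and VhaSFD) had log2 fold changes between -0.068 and 0.077.

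The 2 used genes of the a subunit were set side by side, as were those of the e subunit. In TotalScript, Vha100-1 had 141, 166, 131 and 132 RPM, against 209.6, 205, 208 and 204 in TruSeq (-0.55 ± 0.083, SE, adjusted p = 1.5e-04), and Vha100-2 had 271, 318, 253 and 239, against 301, 304, 291 and 287. In SMART-seq2, Vha100-2 had 469, 708, 709 and 604 and was higher by 1.07 ± 0.13 (SE, adjusted p = 7.9e-05), whereas Vha100-1 had 163, 212, 226 and 222, on both sides of TruSeq, with a change of -0.0069 ± 0.11 (SE, adjusted p = 0.96). In 2.5x and 5x Vha100-1 was called higher by 0.23 ± 0.069 and 0.20 ± 0.068, but neither call held with TMM, the sampled counts or the mixture as a replicate block, that in 5x was lost without any 1 TruSeq library, and with DESeq2 the 5x value was -0.00077. Relative to the median of all genes its changes in 2.5x and 5x were 0.015 and -0.014, and those of Vha100-2 were 0.80 and 0.79. Vha100-2 took 56.9 ± 2.20% of the reads on the a subunit genes in Clontech, 65.5 ± 0.702% in TotalScript, 75.0 ± 1.70% in SMART-seq2, 71.3 ± 1.45% in 2.5x, 71.3 ± 1.06% in 5x and 58.8 ± 0.592% in TruSeq (SD, n = 4 or 5). The libraries of TotalScript and of the 3 SMART-seq2 protocols all lay above those of TruSeq, and those of Clontech overlapped them. These shares are of reads and not of transcripts, and are given as a description with no test.

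For the e subunit the share of VhaM9.7-b was 68.6 ± 1.11% in Clontech, 68.4 ± 2.05% in TotalScript, 70.2 ± 3.34% in SMART-seq2, 70.3 ± 3.96% in 2.5x, 69.9 ± 3.91% in 5x and 68.6 ± 0.886% in TruSeq. Every protocol overlapped TruSeq, and the means differed by less than the spread of the low-input libraries. For the A subunit, Vha68-2 took at least 98.8% of the reads in all 26 libraries. No silent member had more than 11 reads over the libraries of any 1 protocol. The annotated spans of Vha100-1, Vha100-2, Vha44, VhaM9.7-c and VhaSFD overlap those of other genes (Alg13, Vti1b, Hmgs, CG18675 with Teh2, and mir-1006), and reads were counted without regard to strand, so reads from such overlaps cannot be assigned.

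**Figure D3:**
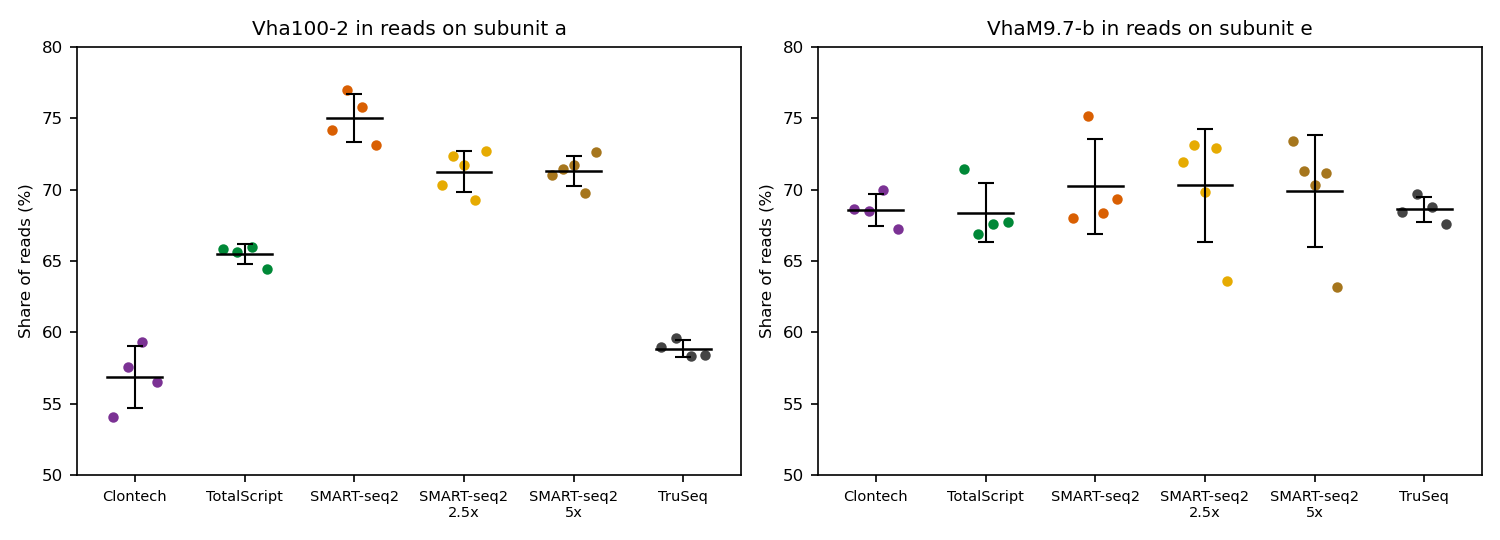
Share of reads (%) taken by Vha100-2 among the a subunit genes and by VhaM9.7-b among the e subunit genes, with 1 point per library, ordered by mixture within each protocol, and bars for the mean ± SD. The axis runs from 50 to 80%. The Vha100-2 share averages 56.9% in Clontech and 58.8% in TruSeq and lies at 64.4% or above in every library of the other protocols, whereas the VhaM9.7-b means lie between 68.4 and 70.3% in every protocol.

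The dilution of the tagmentation reaction was compared next. No member passed the test between 5x and 2.5x, nor between 2.5x and SMART-seq2, and 0% of all 6565 and 6400 genes were called (edgeR). At an unadjusted p under 0.05 there were 0 members in both comparisons (edgeR). Of all genes, 0% had such a p in 5x over 2.5x and 2.97% in 2.5x over SMART-seq2. DESeq2 and limma voom called 0 members. The fit of 5x over 2.5x left the shared cDNA out, so its lack of calls is not a result about the members. With the mixture as a replicate block, which fits the shared cDNA of 5x and 2.5x, 1 member, VhaPPA1-1, had an unadjusted p under 0.05 (0.074 ± 0.029, SE, unadjusted p = 0.025, adjusted p = 1.00, edgeR), with 1.89% of all genes. VhaPPA1-1 was higher in 5x in all 5 mixtures, by 0.012 to 0.13 on the log2 scale. The log2 fold changes of the 17 used members ran from -0.049 to 0.074 in 5x over 2.5x and from -0.15 to 0.24 in 2.5x over SMART-seq2. In 2.5x over SMART-seq2 the groups did not overlap for Vha100-1 (0.24 ± 0.15) and VhaAC45 (-0.11 ± 0.11, edgeR, SE), at unadjusted p of 0.13 and 0.36. The share of all genes without overlap was not counted, so nothing about the members is read from this. The 2.5x libraries and the SMART-seq2 libraries differed also in pre-amplification, PCR cycles, experiment and the measured D. virilis share at the same label, which cannot be told apart from the dilution. The diluted libraries of 1 mixture came from 1 pre-amplified cDNA, and most members deviated alike in both, with Pearson's r over the 5 mixtures of 0.36 (VhaAC45) to 0.99 (Vha36-1). Vha36-1 varied 2.14-fold over the mixtures in 5x and 1.91-fold in 2.5x, while no pair of libraries of 1 mixture differed by more than 0.12 on the log2 scale. Vha55 varied 1.199-fold and 1.21-fold, with no pair differing by more than 0.033. For VhaAC45, Vha16-1 and Vha13 the dilutions were less alike, with r of 0.36, 0.38 and 0.49, and VhaAC45 differed by up to 0.21 within a pair, against a range of 0.087 over the mixtures in 2.5x. Over the 17 used members the largest difference within a pair had a median of 0.12 and a maximum of 0.36 (Vha14-1, 5% mixture), and the range over mixtures had a median of 0.31 in 5x and 0.33 in 2.5x. Of the 85 deviations of a gene in a mixture from its mean, 71 had the same sign in both dilutions (Pearson's r = 0.84 across genes and mixtures, which share libraries and are not independent).

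**Figure D4:**
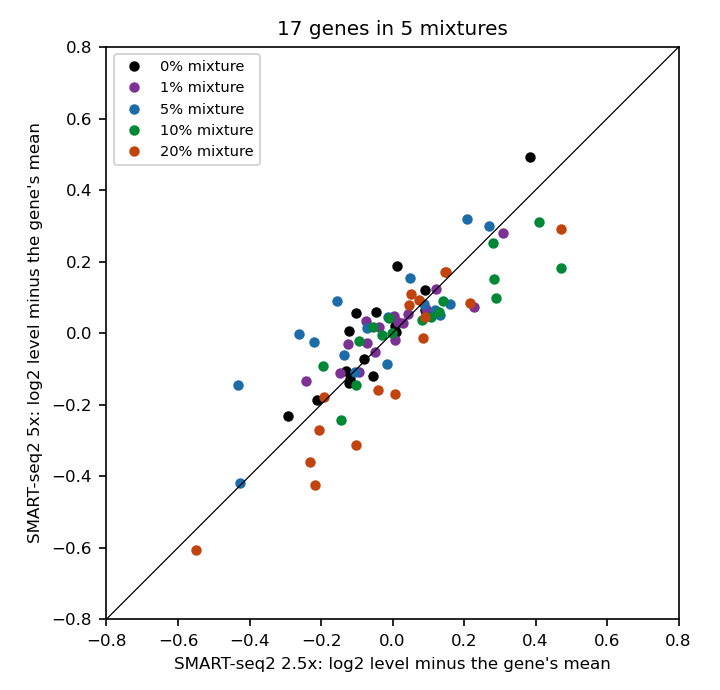
Deviation of each of the 17 used genes from its own mean over the 5 mixtures, in log2 RPM, in SMART-seq2 5x (vertical axis) and 2.5x (horizontal axis), with 1 point per gene and mixture and the line of equality. The points follow the line (r = 0.84), and the lowest point is Vha36-1 in the 20% mixture.

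The median spread over libraries was wider in each low-input protocol than in TruSeq. In TruSeq the coefficient of variation (CV) of the 17 used members had a median of 2.19% and ran from 0.542% (VhaSFD) to 5.25% (VhaM9.7-c), with 1.21% given by counting alone at the median. In Clontech the median CV was 8.81% (counting 3.32%), in TotalScript 12.4% (3.96%) and in SMART-seq2 14.1% (3.41%). The diluted protocols were sequenced more deeply, with a median CV of 8.81% in 2.5x and 8.04% in 5x and only 1.29 and 1.31% from counting. The CV of all 6011 genes at 5 or more RPM in TruSeq had a median of 15.3% in Clontech, 16.6% in TotalScript, 20.8% in SMART-seq2, 15.1% in 2.5x, 14.4% in 5x and 3.15% in TruSeq, above that of the members in each. These 6011 genes begin at 5 RPM, below the lowest used member at 44.4 RPM in the pooled TruSeq reads. Genes with fewer reads vary more by counting alone, so these medians do not compare genes of like level. Within the pump the steadiest gene in SMART-seq2 and in 2.5x was the accessory VhaAC45, with a CV of 2.86 and 2.44%. The most variable were VhaM9.7-c in Clontech (29.8%) and SMART-seq2 (40.7%), Vha14-1 in TotalScript (33.8%) and Vha36-1 in 2.5x (28.7%) and 5x (31.1%).

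**Figure D5:**
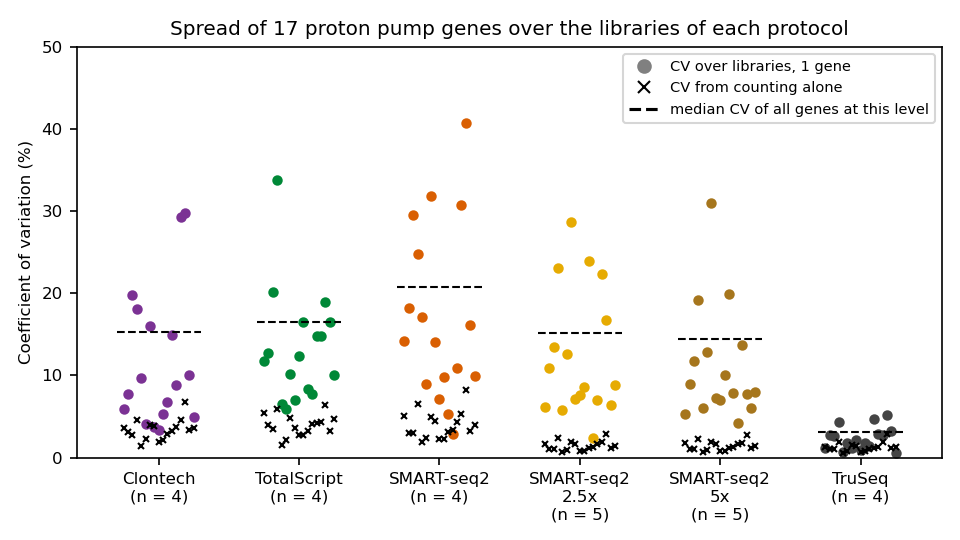
Coefficient of variation (%) of each of the 17 used genes over the libraries of a protocol (points). Crosses mark the value from counting alone, and dashed lines the median over all 6011 genes at 5 or more RPM in TruSeq. The TruSeq points lie at or under 5.25%, and those of the low-input protocols reach 29.8 to 40.7% in Clontech, TotalScript and SMART-seq2.

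The level of the members was tested against the labelled D. virilis percentage, not the measured share. At the 20% label that share was 17.6% of gene reads in both diluted protocols and 7.17 to 9.40% in the others. The fit took the diluted libraries of 1 mixture as independent, although they share their cDNA. In a fit over all 26 libraries with protocol as a term, no member had a slope on the D. virilis percentage that passed, with 0.058% of all 6897 genes called (edgeR). At an unadjusted p under 0.05 there were 4 of the 18 members (12.4% of all genes), and DESeq2 and limma voom called 0. Among the used members the slopes ran from -0.014 (Vha36-1) to 0.012 (VhaAC39-1) in log2 per percentage point. The slope of Vha68-1 was 0.061 ± 0.030 (edgeR, SE, unadjusted p = 0.050, adjusted p = 0.40). Its level was highest in the 20% library in both dilutions but not in the other protocols. These libraries of both dilutions came from the same cDNA, which the fit counted as separate.

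Related genes were set beside the pump. The 11 fixed genes of the mitochondrial F-type ATP synthase, the rotary enzyme that makes ATP, had a median log2 fold change of 0.25 in Clontech, 0.088 in TotalScript, 0.43 in SMART-seq2, 0.52 in 2.5x and 0.53 in 5x. Of them 4 were higher and 3 lower in TotalScript, 5 higher and 1 lower in SMART-seq2, 7 and 1 in 2.5x, and 8 and 0 in 5x. The shares of all genes called were 39.1% higher and 36.9% lower in TotalScript, 36.9 and 19.1% in SMART-seq2, 41.1 and 21.4% in 2.5x, and 42.4 and 22.2% in 5x, and the TotalScript counts of this list lie near them. In TotalScript the catalytic beta subunit gene ATPsyn-beta averaged 3123 RPM, against 1428 in TruSeq (log2 fold change 1.13 ± 0.084), and blw, for the alpha subunit, averaged 915 in TotalScript, against 1641 in TruSeq (-0.84 ± 0.088). The 13 endolysosomal partners had medians of 0.014, -0.71, 0.13, 0.21 and 0.25 in the same order of protocols, with 4 higher and 7 lower in TotalScript, 4 and 4 in SMART-seq2, 6 and 5 in 2.5x, and 5 and 5 in 5x. Among these, Rbcn-3A, whose product helps to assemble the pump, averaged 99.8 RPM in SMART-seq2, against 294.6 in TruSeq (-1.56 ± 0.20), and Rab7, the GTPase of late endosomes, averaged 256.6 in SMART-seq2, against 128 in TruSeq (1.00 ± 0.12). Mitf, the transcription factor that drives V-ATPase genes in flies, averaged 848 in TotalScript, against 308 in TruSeq (1.46 ± 0.059). Larger changes in TotalScript were those of raptor (-3.91 ± 0.13), Tor (-2.36 ± 0.15) and dor (-2.21 ± 0.19), all lower. A link between Mitf and the members was not tested.

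The genes whose level over the 26 libraries was most like the mean of the 17 used members were CLS (cardiolipin synthase), CG1319 (the ferredoxin Fdx2 in RefSeq) and QC (glutaminyl cyclase), with Pearson's r of 0.98, 0.97 and 0.97 on the log2 scale (n = 26 libraries, which fall into 6 protocols), against a median of 0.24 over 5994 genes. The libraries share protocols and depth, so this likeness is a description of these libraries, and nothing is drawn from it about function.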

How the data were processed

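The authors mixed total RNA of both species, made the libraries and read 50 bp from a single end. The authors called bases (CASAVA 1.8 in the submitters' notes), mapped reads with STAR to the combined FlyBase 5.54 genomes, and counted uniquely placed reads for each gene name with HTSeq, ignoring strand. The deposited values are raw counts, at full depth and randomly sampled to equal depth, although the columns are headed FPKM. The 5 HTSeq categories of reads without a gene were left out; over the 26 libraries, reads without a unique place made up 5.96 to 41.2%, reads outside genes 6.16 to 12.6% and ambiguous reads 1.84 to 2.63%.

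The full-depth counts were tested pair by pair with edgeR 4.0.16 (quasi-likelihood test, filterByExpr, library size the D. melanogaster total, no further scaling) in R 4.3.3, with Benjamini-Hochberg adjustment over all D. melanogaster genes tested and a threshold of 0.05. The alternatives were TMM, DESeq2 1.42.0, limma 3.58.1 (voom), no filter, the sampled counts, the mixture as a replicate block, a fit on all 26 libraries, the 1% library included, and each library left out. The comparison of SMART-seq2 with TruSeq was also fitted to simulated counts with the same dispersion in both protocols, unlike the real libraries. That run does not show how the fit behaves where the spread is unequal. The SE of an edgeR log2 fold change was derived from the test, as its size divided by the square root of the F statistic. Tables were made with Python 3.11.15, numpy 2.4.6 and pandas 2.3.3. The diluted SMART-seq2 libraries of 1 mixture share their cDNA by the authors' methods, and their deviations from the protocol means correlated by 0.83 to 0.93 in all 5 mixtures.

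Values per library were given for the most abundant gene of each subunit and for genes called in at least 3 comparisons with TruSeq, in full or as a range. The planned division by transcript length was not done, since no lengths were used here, and shares are of reads. Names, neighbours and overlaps came from the RefSeq table (Release 6 assembly), which matched all 33 members. The members and lists were chosen with earlier results of these data known.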

Additional observations from a re-analysis of the deposited data

Results flagged for a closer look

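Over 108 sets of libraries (18 members in 6 protocols), 7 held a library set apart from the others by Dixon's ratio, or 6.48%, where chance gives about 1 in 20. This share is near that of chance, and the share over all genes was not counted. The sets of 1 protocol share their libraries and are not independent. The 7 are listed as a description, and nothing about the members is read from them. In SMART-seq2 the 0% library was set apart for Vha13, with 883 RPM beside 498 to 539 in the other libraries, and for VhaM9.7-b, with 293 beside 165 to 176. In Clontech the 0% library was set apart for VhaM9.7-b, with 184 beside 103 to 117. In SMART-seq2 5x the 20% library was lowest for Vha16-1, with 1313 beside 1479 to 1526, and for Vha68-2, with 873 beside 1086 to 1146. In the same protocol the 5% library was highest for Vha26, with 1057 beside 778 to 851. In TruSeq the 10% library was highest for Vha68-1, with 2.07 (65 reads) beside 1.71 to 1.74, where counting error alone spans 1.60 to 2.64.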

How the results depend on the processing

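Of the 61 calls of a member against TruSeq, 51 held under every alternative run, and 894 of the 947 values from the alternatives kept their direction and passed the test. The calls are not independent, since all share the TruSeq libraries, and those of 2.5x and 5x share their cDNA. The total of members called stayed within 1.5 times the reported one in every comparison but Clontech, where DESeq2 called 1 and leaving out 1 library gave 0 to 3. In TotalScript the lower calls alone, 2 as reported, numbered 5 without the 5% TotalScript library, 3 with limma voom and 1 in the sampled counts. The only reversed value was that of Vha100-1 in SMART-seq2 5x, -0.00077 with DESeq2. In SMART-seq2, 2.5x and 5x the median log2 fold change of V1 was 0.43, 0.47 and 0.45 with TMM and 0.43, 0.46 and 0.45 with DESeq2, that of V0 was 0.79, 0.82 and 0.81 with TMM and 0.79, 0.81 and 0.80 with DESeq2, and that of the accessory genes was 0.53, 0.46 and 0.41 with TMM and 0.52, 0.45 and 0.40 with DESeq2; the scaling itself lowers all genes by about the same amount. For V0 in SMART-seq2 the median was 0.90 with limma voom and 0.92 with the mixture as a replicate block, and 0.82 to 1.03 with 1 library left out. For V1 in Clontech it was -0.023 to 0.042 with 1 library left out. The Vha68-2 share in TruSeq was 99.9% in the sampled counts, where Vha68-1 has few reads. The replicate block left 0 members called in Clontech (0.672% of all genes), 13 in TotalScript (71.5%) and 15 in SMART-seq2 (48.5%), 2.5x (59.2%) and 5x (61.9%), and it took away the calls of Vha14-1 in SMART-seq2 and of Vha100-1 in 2.5x and 5x. In 5x over 2.5x and in 2.5x over SMART-seq2 the block called 0 members. Outside 5x over 2.5x, libraries of the same mixture share a label, and their deviations correlated by -0.36 to 0.30. In Clontech over TruSeq 3 of 4 libraries correlated best with that of their own mixture, and 0 or 1 of 4 in the other comparisons. These values do not settle whether such libraries should be paired. In the shallowest library a count of 0 allows up to 1.92 RPM (3 reads).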

Other observations

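The numbers in the names of the subunit genes give the approximate mass of the protein in kDa, and in TotalScript the 13 used V1 and V0 genes with such a number were recovered less where it was large, though not in strict order. VhaSFD and VhaPPA1-1 have no such number and were left out. This was noticed after the values were seen and was not tested. The 4 genes with a number of 50 or more (Vha100-1, Vha100-2, Vha68-2 and Vha55) had log2 fold changes over TruSeq of -0.55 to -0.14, and the 9 with a smaller number 0.28 to 1.37, without overlap (Spearman's rho = -0.77 over 13 genes, which share libraries). In Clontech the same groups had -0.11 to 0.077 and -0.039 to 0.40 (rho = -0.88), and in SMART-seq2 -0.0069 to 1.07 and 0.32 to 1.07 (rho = -0.21). In SMART-seq2 2.5x and 5x rho was -0.42 and -0.44, and the groups overlapped. All these values share the TruSeq libraries. Transcript lengths were not used here, and whether length moves with the recovery was not tested.

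CG31030, which RefSeq names VhaAC45RP, for VhaAC45-related protein, and which the name rule leaves out, had 11 reads in 3 of the 26 libraries and 1 read in TruSeq.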
